A study of Homo sapiens with 40 samples.

Results

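Broad H3K27ac domains are unbroken stretches of at least 10000 bp that the deposited peak lists mark as acetylated on lysine 27 of histone H3. They were selected on H3K27ac row width in 2 lists, 1 per genotype, and rows that overlapped between the lists were merged. Of 114648 H3K27ac rows in all, 680 of 55740 control rows and 720 of 58908 knockout rows reached this width, which gave 911 merged domains covering 15.4 Mb. Of these, 434 held a row of at least 10000 bp in both genotypes, 212 in control cells only and 265 in knockout cells only.

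The series comprised 40 samples of A549, an established line of human lung adenocarcinoma cells. Control cells were compared with cells in which SETDB1 had been disrupted by CRISPR/Cas9 from a PX458 plasmid, with both genotypes grown in the same medium and no further treatment named. RNA-seq had 3 libraries per genotype, and ChIP-seq of each mark and Hi-C had 2. The labels do not say whether the knockout cells were 1 clone, nor whether libraries came from separate cultures, so p-values measure only the spread between these libraries, which may be technical. Each mark had 1 peak list per genotype, so shares of domains are given with 95% Wilson intervals, which hold the counting error alone. Positions are on hg19.

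H3K27ac is placed by the acetyltransferases EP300 and CREBBP and removed by class I histone deacetylases. It marks active promoters and enhancers, and long runs of it are often found around clustered enhancers and at genes that define a cell's identity. SETDB1 is a methyltransferase that places H3K9me3, a mark of silenced chromatin, among others at transposable elements and clusters of zinc finger genes, and acetylation and methylation of the same chromatin are generally opposed. Active chromatin gathers in the compartment called A and silent chromatin in compartment B, and a compartment score from Hi-C gives the side of each stretch of the genome. Genes and sequences inside the domains were not analysed here.

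RNA-seq totals ranged from 18065062 to 48364919 counts. SETDB1 (ENSG00000143379) was measured at 37.5, 39.6 and 38.7 CPM (counts normalised to library size) in control and at 23.4, 21.2 and 21.1 CPM in knockout libraries, so the genotypes did not overlap. The log2 fold change of SETDB1 was -0.82 (SE 0.060, edgeR adjusted p 1.7e-12). The epithelial keratin KRT8 was at 2271 ± 139 CPM in control and 6594 ± 261 CPM in knockout libraries (SD, n = 3), and all 4 epithelial markers examined were higher in knockout libraries. Markers of other cell types were low, and several moved. Of the blood cell markers PTPRC had at most 1 count in any library and CD74 fell from 1.77 to 0.686 CPM. The endothelial CDH5 rose from 0.289 to 4.53 CPM, and the fibroblast collagens COL1A1 and COL3A1 were at 3.10 and 0.320 CPM in control and 3.83 and 0.873 CPM in knockout libraries, both called higher with edgeR, although COL1A1 did not pass with upper quartile scaling, with DESeq2, or without any single library other than knockout library 3. The part of other cells in the results was not tested.

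The broad rows were a small and similar part of H3K27ac in each genotype. In control cells they made up 1.22% of rows (95% interval 1.13 to 1.31) and 10.1% of the 109.1 Mb under H3K27ac rows. In knockout cells they made up 1.22% of rows (1.14 to 1.31) and 9.88% of 120.2 Mb. The median broad row was 13438 bp wide in control and 13325 bp in knockout cells, against medians of 1366 and 1436 bp over all rows. The threshold cut a continuous range of widths. The narrowest control rows kept were 10001, 10004 and 10009 bp wide, and the widest left out were 9995, 9992 and 9987 bp. In knockout cells the rows nearest the threshold were 10009, 10010 and 10012 bp wide inside it and, outside it, 9998 and 9993 bp after 1 row that was a single bp short.

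Wider domains were more often broad in both genotypes. When the domains were ordered by width, 15.8% (12.1 to 20.3) of the narrowest 304 were broad in both, 43.9% (38.4 to 49.5) of the middle 303, and 83.2% (78.6 to 87.0) of the widest 304. The classes therefore differed in width, with a median of 17228 bp for domains broad in both, 11813.5 bp for control only and 11847 bp for knockout only. No domain broad in control only was wider than 28139 bp, and none broad in knockout only was wider than 38482 bp. Merging added to this difference, since a domain broad in both could join several rows, while each one-sided domain was a single row of its genotype. Since width chose the domains, these values describe the classes and were not tested.

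The 10 widest domains were all broad in both genotypes and at least 95.2% covered by H3K27ac in each. The widest, chr15:67355429-67491898, spanned 136470 bp. It was a single row of 136321 bp in knockout cells and 4 rows with 133213 bp in all in control cells, so the change in its widest row, from 87778 to 136321 bp, went with gaps of at most 1488 bp. The next were chr7:130557789-130632834 with 75046 bp, chr5:58794848-58869783 with 74936 bp and chr17:48707153-48780181 with 73029 bp. In the first of these, H3K27ac covered 74406 bp in control and 74182 bp in knockout cells, although its widest row went from 40637 to 59018 bp. The remaining 6 were chr15:59534007-59600210, chr17:57822803-57886733, chr10:33533014-33596869, chr9:75509260-75571366, chr7:47576536-47638483 and chr2:36582045-36643373. Among the 10, the widest row was wider in knockout cells in 7.

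Domains broad in both genotypes had similar widths, which the rule favours because it asks for a row of at least 10000 bp in each, so the values are a description. The median log2 ratio of the widest knockout row to the widest control row was 0.016, and the knockout row was the wider in 242 of 434 (55.8%). It was at least 1.5 times wider in 39 domains, and the control row was at least 1.5 times wider in 31. In the 180 domains that were a single row in each genotype, the median shift of an edge was 202.5 bp, and 258 edges (71.7%) lay within 500 bp of each other. The widest rows of the genotypes had a Spearman rho of 0.67 across the 434 domains, which share their selection by width.

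**Figure D1:**
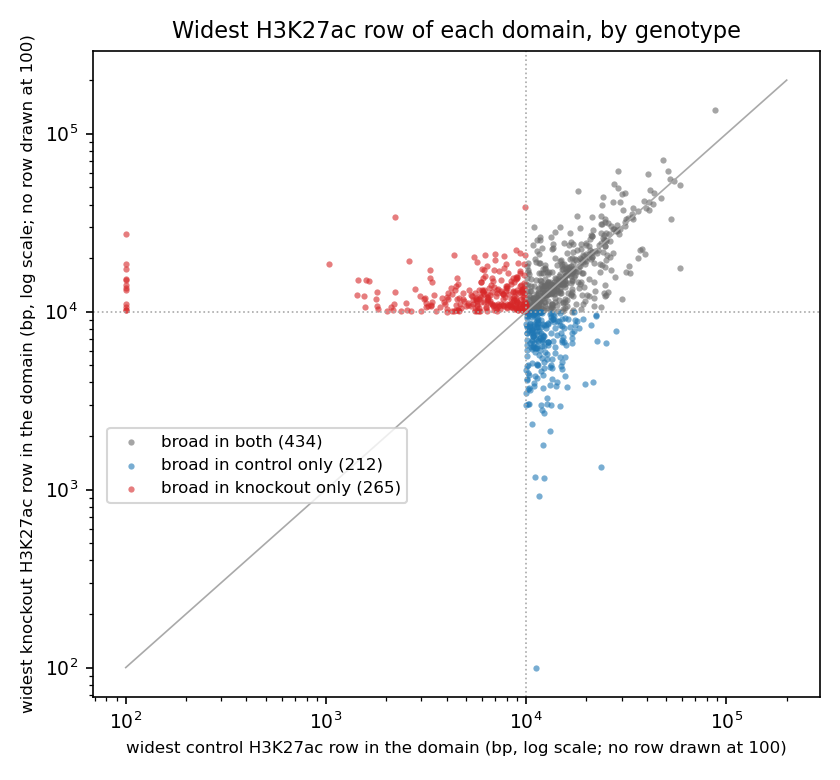
Width in bp of the widest H3K27ac row inside each of 911 domains, control on the x axis and knockout on the y axis, both on log scales. Each point is a domain, dotted lines mark the 10000 bp minimum, the solid line marks equal width, and domains without a row are drawn at 100 bp. Domains broad in 1 genotype lie mostly close to the dotted lines, while 12 had no control row and 1 had no knockout row.

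Most domains broad in 1 genotype were still acetylated over most of their length in the other, where the wide row was split or shortened. Domains broad in control only had a median of 83.3% of their length under knockout rows, and 194 of 212 (91.5%, 87.0 to 94.6) were at least 50% covered. In knockout cells 33 of them held 1 row, 96 held 2 and 82 held 3 or more. The widest knockout row in them had a median of 7114.5 bp. In 81 of 212 (38.2%, 31.9 to 44.9) no stretch without a knockout row was longer than 1000 bp. These domains crossed the 10000 bp line through short gaps in rows as well as through loss of acetylated length.

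The mirror class behaved in the same way over most of its members but had a longer tail of domains with little control acetylation. Domains broad in knockout only had a median of 80.3% of their length under control rows, and 223 of 265 (84.2%, 79.3 to 88.1) were at least 50% covered. The widest control row in them had a median of 6541 bp. In 92 of 265 (34.7%, 29.2 to 40.6) no stretch without a control row was longer than 1000 bp. Less than 50% of the length was acetylated in the other genotype in 42 of 265 knockout only domains (15.8%, 11.9 to 20.7) and in 18 of 212 control only domains (8.49%, 5.44 to 13.0). Of 21229 narrower H3K27ac regions, under 10000 bp wide, 85.1% were at least 50% covered in control and 91.1% in knockout cells. No row lay in 6.98% and 4.16% of them. Lower coverage in control cells was thus not particular to broad domains.

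**Figure D2:**
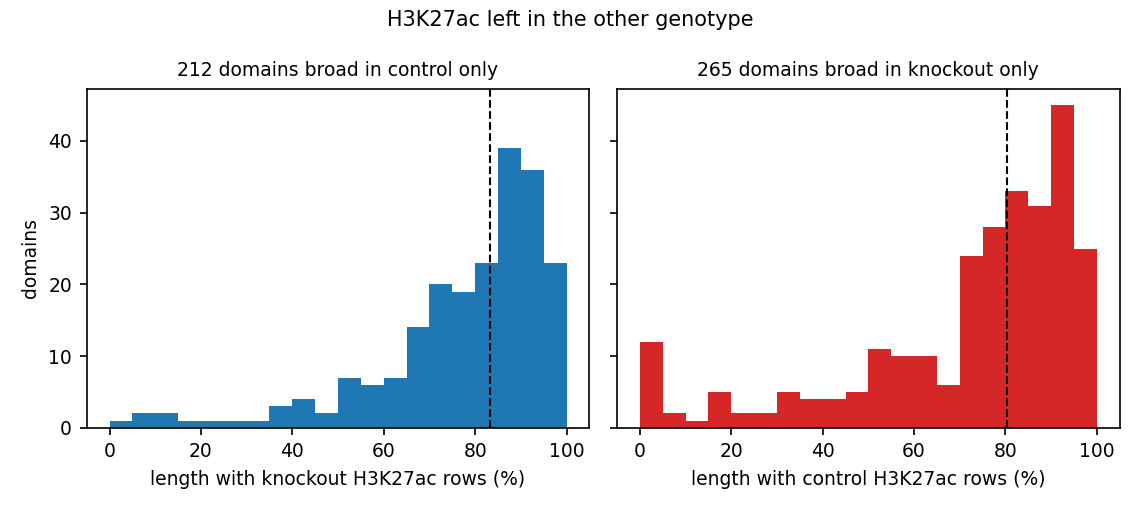
Percent of the length of each domain that lay under H3K27ac rows of the other genotype, as histograms with bars of 5 percentage points, for 212 domains broad in control only (left) and 265 broad in knockout only (right). Dashed lines mark the medians of 83.3% and 80.3%. The right panel has a separate bar at 0, which holds the 12 domains without a control row.

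Some domains in each class show how the change looked. The widest of the control only domains, chr8:32402710-32430848, was 1 control row of 28139 bp and 4 knockout rows of 19077 bp in all. Its H3K4me3, a mark of active promoters that the selection did not use, covered 90.7% of it in control and 47.9% in knockout cells. The domain at chr5:172278253-172303321 (25069 bp) kept 17577 bp of acetylation in knockout cells. By contrast chr2:234347561-234371103 (23543 bp) kept only 1815 bp. Only chr15:69599714-69610928 (11215 bp) had no knockout row at all. H3K4me3 covered 22.5% of that domain in control and 3.95% in knockout cells, and its compartment score was positive in all 4 Hi-C libraries.

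Among the knockout only domains the widest, chr18:8717744-8756225, was 1 knockout row of 38482 bp and already carried 30635 bp of acetylation in control cells in 7 rows. The next, chr15:34423961-34458175 (34215 bp), carried 5539 bp in control cells. In control cells 48.4% of that domain was under H3K9me3 peaks and 19.1% under H3K4me3 peaks, against 5.82% and 91.8% in knockout cells. The first was thus acetylated over most of its length in both genotypes, while the other had more of its control length under H3K9me3 than under H3K27ac. Of the 10 widest knockout only domains, 8 had more H3K4me3 in knockout than in control cells, and of the 10 widest control only domains 9 had less.

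The 12 domains with no control row were the extreme of the knockout only class. Of these, 8 lay on chromosome 19, 3 on chromosome X and 1 on chromosome 3. H3K9me3 covered more than 50% of 8 of them in control cells, 11 had no control H3K4me3 peak, and H3K4me3 covered more than 50% of 9 in knockout cells. A group of 5 lay between positions 23552641 and 23749169 of chromosome 19. In its widest member, chr19:23721699-23749169 (27471 bp), control cells had H3K9me3 over 93.1% and no H3K4me3, and knockout cells had no H3K9me3 and H3K4me3 over 96.3%. The other members of the group had 99.7% to 100% of their length under control H3K9me3 and none in knockout cells. The chromosome 19 domains chr19:53435644-53450826 (15183 bp) and chr19:56878466-56897028 (18563 bp) were likewise 100% under control H3K9me3.

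Not every domain that appeared from nothing had been under H3K9me3. On chromosome X, chrX:115359850-115373936, chrX:115401299-115414804 and chrX:93834021-93845081 had no H3K9me3 peak in control cells. In the second of these a knockout H3K9me3 peak covered 23.9% of the domain and H3K4me3 was at 0% in both genotypes, while in the last H3K4me3 went from 0% to 100% of the length and knockout H3K9me3 peaks covered 14.3%. The domain chr3:110677775-110691007 was 64.5% under control H3K9me3. The domain chr19:42274644-42285245 was instead 87.3% under control H3K27me3, the mark of Polycomb silencing.

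The other marks were then compared over whole classes and with 21229 narrower H3K27ac regions, at least 2000 bp but under 10000 bp wide. H3K4me3 covered 67.8% of the length of domains broad in both in control and 65.5% in knockout cells. In control only domains it covered 51.9% and 41.7%, and in knockout only domains 49.6% and 61.4%. H3K4me3 was thus lower where the wide row was lost and higher where it was gained, while the narrower regions had 55.7% and 58.1%. Its coverage also went with width, from 54.0% of the narrowest 304 domains to 58.9% of the middle 303 and 65.0% of the widest 304 in control cells. The genome-wide lists held 56854 control and 69459 knockout H3K4me3 peaks, and the part of this difference in the values was not tested.

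H3K9me3 peaks overlapped 411 of 911 domains (45.1%, 41.9 to 48.4) in control and 28 (3.07%, 2.13 to 4.41) in knockout cells. Their share of the domains' length went from 9.88% to 0.449%. The loss was not particular to one class, since H3K9me3 covered 8.88% and 0.431% of domains broad in both, 8.27% and 0.482% of control only domains, and 13.9% and 0.473% of knockout only domains. Narrower H3K27ac regions had 7.70% and 0.289%, and all bins with a positive compartment score had 9.89% and 1.13%. Bins with a negative score went the other way, with 15.5% in control and 50.3% in knockout cells. The whole lists held 102976 control and 53949 knockout H3K9me3 peaks, and the part of this difference in the values was not tested. Within the domains, 76.1% of the length of control H3K9me3 peaks lay inside control H3K27ac rows, and in domains broad in both this was 91.6%. Peak lists of both marks thus overlapped in the same control populations, and whether both marks sat in the same cells cannot be told from lists of positions.

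**Figure D3:**
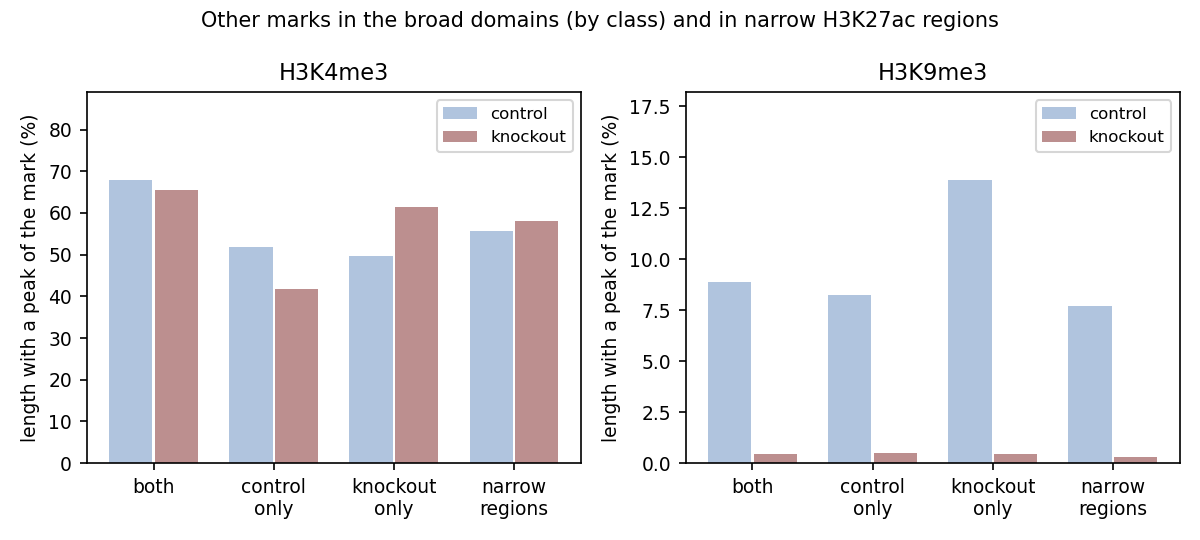
Percent of length under H3K4me3 peaks (left) and H3K9me3 peaks (right) in domains broad in both genotypes, in control only, in knockout only, and in 21229 narrower H3K27ac regions, for control (blue) and knockout (red) peak lists. Bars have no error because each mark had 1 list per genotype. H3K4me3 was lower in knockout cells in the control only class and higher in the knockout only class, and H3K9me3 was under 0.5% in every knockout bar.

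The 42 knockout only domains with less than 50% control acetylation stood out within that change. Their length was 40.0% under control and 1.13% under knockout H3K9me3, and 20.7% and 64.4% under H3K4me3. H3K9me3 covered at least 50% of the domain in 14 of 42 (33.3%, 21.0 to 48.4) in control cells, against 37 of all 911 (4.06%, 2.96 to 5.55). In the 18 control only domains with less than 50% knockout acetylation, H3K9me3 covered 13.6% and 5.09% of the length, and H3K4me3 covered 44.6% and 19.1%. Pooled over these 18 lost domains, H3K9me3 length was thus lower in knockout cells, though above the 0.449% of all domains. In knockout cells H3K9me3 covered at least 50% of 1 of the 18, the only such domain among 911. In control cells it did so in 0 of the 18. Of the 42 domains 10 lay on chromosome 19 and 7 on chromosome 12, and of the 18 domains 5 lay on chromosome 2.

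H3K27me3 was nearly absent from broad domains. It overlapped 4 of 911 (0.439%, 0.171 to 1.12) in control and 0 of 911 (0%, 0 to 0.420) in knockout cells, against 0.848% and 0.320% of narrower regions. All 4 were knockout only domains and are named here after their values were seen. Besides the chromosome 19 domain above they were chr6:85476880-85487265, chr6:85591254-85609738 and chr14:38054814-38067127, with 50.2%, 47.8% and 8.40% of their length under control H3K27me3. H3K4me3 went from 44.3% to 99.3% of the first and from 14.7% to 92.6% of the second. In chr14:38054814-38067127 it covered 91.8% already in control cells. Over all 265 knockout only domains, a control H3K9me3 peak lay in 115 (43.4%, 37.6 to 49.4) and a control H3K27me3 peak in 4 (1.51%, 0.589 to 3.82). Of those 4, 1 also held a control H3K9me3 peak.

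CTCF, the protein that binds insulators and loop anchors, had fewer peaks per length in broad domains than in narrower H3K27ac regions. A CTCF peak lay in 123 of 911 domains (13.5%, 11.4 to 15.9) in control and in 255 (28.0%, 25.2 to 31.0) in knockout cells. Per length this was 9.17 and 20.6 peaks per Mb, against 19.9 and 37.7 in narrower H3K27ac regions. All bins with a positive compartment score had 9.40 and 14.9 peaks per Mb, so the domains were near that level in control and above it in knockout cells. The whole lists held 23903 and 34474 CTCF peaks, and the part of this difference in the values was not tested. By class, a CTCF peak lay in 16.6% and 31.8% of domains broad in both, 11.8% and 28.8% of control only and 9.81% and 21.1% of knockout only domains. In the 42 gained domains with little control acetylation it lay in 7 and 5, so there the direction was not the same.

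Broad domains lay almost wholly on the active side of the compartment score. The score was taken from the 100 kb bin that holds the middle of each domain, and 899 domains had one. Bins with a positive control score held more H3K4me3 (5.92% of their length) than bins with a negative one (0.846%). The score was positive for 872 of 899 domains (97.0%, 95.7 to 97.9) in control and 877 (97.6%, 96.3 to 98.4) in knockout cells, against 55.2% and 55.1% of all bins and 92.3% and 92.2% of narrower regions. A negative control score was found for 27 domains, of which 20 were among the 258 knockout only domains with a score (7.75%, 5.07 to 11.7).

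Over all domains the score was called changed in a smaller share than over all bins, as it was in narrower H3K27ac regions. With limma at an adjusted p under 0.05, 21.5% of 26503 bins were higher and 37.3% lower in knockout cells. Of the 899 domains, 161 (17.9%, 15.5 to 20.6) lay in a bin called higher and 188 (20.9%, 18.4 to 23.7) in one called lower. For narrower regions these shares were 18.2% and 23.9%. The balance between directions depended on scaling: higher bins were 46.1% of called domains as deposited and 27.4% when the columns were scaled to the same spread, with 96 higher and 254 lower, while over all bins the shares were 36.6% and 34.5%. The balance also depended on the libraries. Lower domains outnumbered higher ones when a Hi-C replicate was left out, except without control replicate 2, where higher ones were more. By class, 62 of 431 domains broad in both were higher and 95 lower. For control only domains these were 34 and 40 of 210, and for knockout only domains 65 (25.2%, 20.3 to 30.8) and 53 (20.5%, 16.1 to 25.9) of 258.

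A higher score was more frequent among the gained domains with little control acetylation than among all bins. Of these 42 domains, 27 (64.3%, 49.2 to 77.0) lay in a bin called higher and 2 in one called lower, in 37 separate bins of which 23 were higher. Their median score was 0.23 in control and 0.69 in knockout cells, and 15 had a negative control score. With the columns scaled to the same spread 26 were higher, and without chromosome 19, an alternative chosen after seeing the data, 18 of 32 (56.2%). The 18 lost domains had a median score of 0.58 in control and 0.53 in knockout cells, with 2 called higher and 6 lower in 15 bins, and none had a negative control score.

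**Figure D4:**
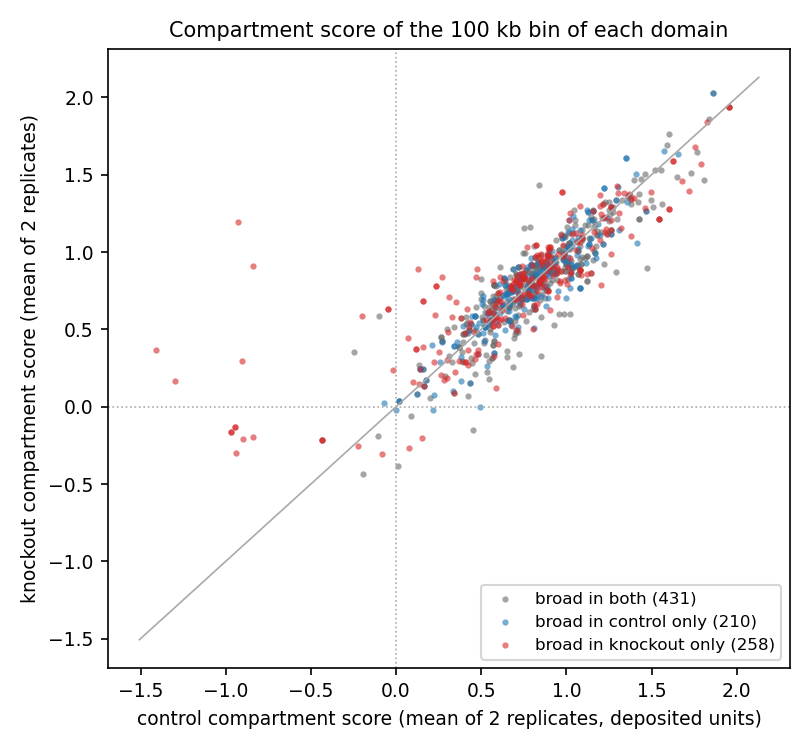
Compartment score of the 100 kb bin of each of 899 domains, as the mean of 2 control replicates (x axis) and 2 knockout replicates (y axis), in the deposited units. Each point is a domain coloured by class, the solid line marks equal scores and dotted lines mark 0. Most points lie near the solid line above 0, and the points far to the left of 0 are knockout only domains.

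The score went from negative in both control replicates to positive in both knockout replicates at 8 domains, 6 of them knockout only. At chrX:115401299-115414804 the control scores were -0.95 and -0.91 and the knockout scores 1.13 and 1.26, a difference of 2.12 (SE 0.051, limma adjusted p 3.3e-09). At chr19:53435644-53450826 they were -1.44 and -1.37 against 0.38 and 0.35. At chrX:115359850-115373936 they were -0.89 and -0.79 against 0.94 and 0.88. In each of these 3 bins the knockout replicates lay far above the control replicates, and the domains themselves held no control H3K27ac row.

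The remaining 5 were chr19:38141742-38151934, chr19:54037495-54054650, chr7:11658145-11673509, chr7:11812816-11842332 and chr19:35488328-35501184. The first 2 of these were 100% and 91.9% under control H3K9me3, and their score differences were 1.46 and 1.20 (limma adjusted p 2.5e-08 and 3.5e-08). The last was different, since it was broad in both genotypes, had no H3K9me3 peak in control cells and still went from -0.16 and -0.33 to 0.37 and 0.33.

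Some domains without a control row lay in bins whose score was negative in both genotypes. The group on chromosome 19 was of this kind, as at chr19:23721699-23749169, where the scores went from -0.90 and -0.98 to -0.087 and -0.17 (difference 0.81, SE 0.048, limma adjusted p 2.7e-07). At chr19:56878466-56897028 they went from -0.83 and -0.85 to -0.19 and -0.21. Of the 12 domains without a control row, 10 had a negative control score and 7 still had a negative knockout score, although 11 lay in a bin called higher. They shared 10 bins, so these are not 12 separate measurements. The exception was the domain under H3K27me3 at chr19:42274644-42285245, with 0.22 and 0.30 in control and 0.22 and 0.18 in knockout libraries (limma adjusted p 0.30).

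The opposite switch was found at 5 domains, of which 4 had more acetylated length in knockout than in control cells. The selection used H3K27ac width, which fixed this direction in the 2 that were broad in knockout cells only. At chr2:17925114-17941776 the scores went from 0.48 and 0.42 to -0.12 and -0.18 (difference -0.60, SE 0.045, limma adjusted p 1.4e-06), and the H3K27ac row went from 13521 to 16663 bp. The others were chr15:89164059-89184318, chr9:78983265-78996871, chr17:9737143-9747955 and chr9:14309357-14324489, with differences of -0.35, -0.34, -0.24 and -0.15. The first 2 of these were broad in knockout cells only, the next in control cells only and the last in both. In the last the row differed little, with 14939 bp in control and 15133 bp in knockout cells. At chr9:14309357-14324489 the difference did not pass the threshold when either knockout Hi-C replicate was left out (-0.15 and -0.16).

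The score differences of the 10 widest domains were smaller than those of the domains whose score turned from negative to positive. With limma, 6 were higher and 1 was lower, against 17.9% and 20.9% of all 899 domains with a score. The other 3 did not pass the threshold, and all 10 stayed positive in every library. The call at chr7:130557789-130632834 held in each of 6 alternative fits, and the other 6 calls each failed in at least 1. At chr7:130557789-130632834 the scores were 0.81 and 0.70 in control and 0.98 and 1.01 in knockout libraries (difference 0.24, SE 0.048, adjusted p 0.0015). At chr5:58794848-58869783 they were 1.10 and 1.06 against 0.90 and 0.95 (difference -0.16, adjusted p 0.0086), and H3K9me3 went from 41.9% to 0% of that domain. For the widest, chr15:67355429-67491898, the difference was 0.066 (SE 0.041, limma adjusted p 0.19).

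One-sided domains were not spread evenly over chromosomes. Chromosome 2 held 29 control only and 7 knockout only domains, so knockout only domains were 19.4% (9.75 to 35.0) of its one-sided domains. Chromosome 12 held 7 and 32, a share of 82.1% (67.3 to 91.0), against 55.6% of all 477 one-sided domains. Expression of tested genes on these chromosomes was displaced in the same directions, with medians of -0.54 (log2 fold change, 1049 genes) on chromosome 2 and 0.37 (854 genes) on chromosome 12. On chromosome 19, where 60.0% of one-sided domains were knockout only, it was 0.34, and on every other chromosome it lay between -0.094 and 0.080. Chromosome 6 held 3 control only and 12 knockout only domains with a median of -0.051. Over 17 chromosomes with at least 10 one-sided domains, the knockout only share and the median had a Spearman rho of 0.17 and a Pearson r of 0.55. DNA copy number was not analysed here, and its part in the domain counts on chromosomes 2 and 12 was not tested. Without both chromosomes, 176 control only and 226 knockout only domains remained.

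**Figure D5:**
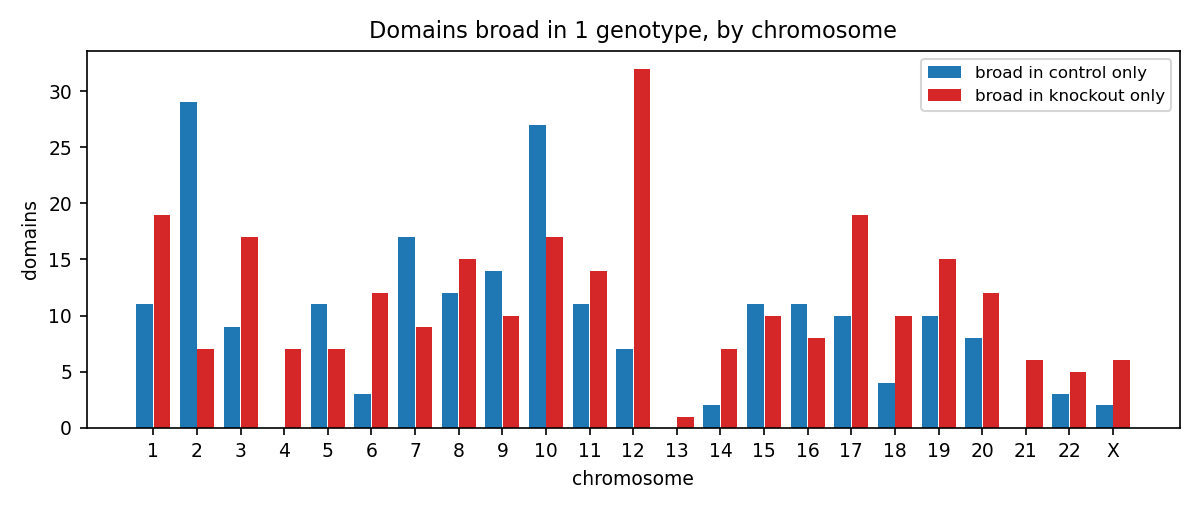
Number of domains broad in control only (blue) and in knockout only (red) on each chromosome. Chromosome 2 had 29 and 7, and chromosome 12 had 7 and 32.

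Genes of the H3K27ac machinery were read from the RNA-seq counts, without a link to single domains. Of 17767 genes tested with edgeR, 32.8% were higher and 30% lower in knockout cells, so a called gene is common in these data and the counts below are to be read against these shares. Among 56 tested genes of 9 lists of enhancer enzymes, readers and factors, 25 were higher, 14 lower and 17 not called, and the median log2 fold change was 0.10, against 0.0038 for the genome as tested.

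Both acetyltransferases were slightly higher. EP300 (ENSG00000100393) was at 78.4 ± 3.50 CPM in control and 86.2 ± 7.32 CPM in knockout libraries (SD, n = 3), with a log2 fold change of 0.14 and an edgeR adjusted p of 0.029 that did not hold without control library 3 or without knockout library 1 or 2, nor with upper quartile scaling. CREBBP (ENSG00000005339) was at 53.9 ± 1.95 and 64.2 ± 2.15 CPM, a log2 fold change of 0.26 (edgeR adjusted p 6.5e-05). Of 4 class I deacetylases 3 were lower and none higher, with log2 fold changes of -0.21 for HDAC1, -0.30 for HDAC2 and -0.47 for HDAC8, while HDAC3 did not pass the threshold (0.10) except, as higher, with library size scaling (0.13). The acetyl-lysine reader BRD2 was higher by 0.40, and BRD3 did not pass the threshold, with a value of 0.071.

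Of 6 subunits of the SWI/SNF remodeller 2 were higher, 1 was lower and 3 were not called. SMARCA2, one of its ATPases, rose from 47.5 ± 2.31 to 82.5 ± 3.85 CPM (SD, n = 3; log2 fold change 0.79, edgeR adjusted p 1.4e-13), and SMARCC2, a core subunit, rose by 0.55. ARID1A was lower by a log2 fold change of -0.11 (edgeR adjusted p 0.043), a call that was lost with library size scaling, with DESeq2, without control library 2 or 3 and without knockout library 1 or 3. SMARCA4, SMARCC1 and ARID1B did not pass the threshold, with values of -0.13, -0.043 and -0.083, though SMARCA4 passed as lower with upper quartile scaling (-0.17). Of 12 tested genes of the list of AP-1 and TEAD factors, which also held YAP1 and WWTR1, 4 were higher and 4 lower. Within AP-1, JUND and FOS had log2 fold changes of 1.12 and 0.64. Those of FOSL1, FOSL2 and JUN were -0.77, -0.63 and -0.31, and JUNB was not called (-0.038).

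Of 12 tested factors of lung epithelium and endoderm 9 were higher (8 with upper quartile scaling, where CEBPB did not pass) and 2 lower. The pioneer factor FOXA1 (ENSG00000129514) was at 16.3, 17.3 and 16.1 CPM in control and 71.4, 75.3 and 75.2 CPM in knockout libraries (log2 fold change 2.16, SE 0.057, edgeR adjusted p 1.6e-22). The epithelial factor EHF rose by 1.72 and SOX9, a regulator of progenitor cells, by 1.05. HNF4A and FOXA2 fell by 0.55 and 0.41 on the log2 scale. Related factors thus moved in opposite directions, and NKX2-1, which defines much of lung epithelium, had at most 2 counts in any library.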

How the data were processed

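Gene counts, peak positions, TAD positions and compartment scores were used as deposited. RNA libraries were stranded total RNA, histone ChIP chromatin was cut with MNase and CTCF chromatin was sonicated, and Hi-C used DpnII, per the labels' protocols. The authors' count table holds whole-number counts per gene, and the authors' compartment table holds a signed score per 100 kb bin for each replicate. Peak and TAD lists hold positions as deposited by the authors, without scores. The submitters' processing notes name STAR 2.6.1c, edgeR 3.30.0, Bowtie2 2.2.3, SAMtools 1.5, Picard, MACS2 and hg19. The peak threshold, any pooling of libraries and the way the score was made are not given in the sources used here.

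Rows of at least 10000 bp were merged where they overlapped by at least 1 bp. A domain was broad in a genotype if it overlapped a row of that width there. Narrower regions were merged rows at least 2000 bp and under 10000 bp wide, 22352 in all, of which 21229 touched no domain. Coordinates are 1-based. Scores were tested with limma 3.58.1 on 4 replicate columns, and counts with edgeR 4.0.16 (TMM, filterByExpr, quasi-likelihood) in R 4.3.3, with Benjamini-Hochberg adjustment at 0.05. Both fits were tested on simulated data. Of 62486 gene IDs, 58642 matched a symbol. Overlaps used Python 3.11.15, numpy 2.4.6 and pandas 2.3.3. Samples were grouped by their labels; the mark name of the knockout H3K4me3 libraries lacks a digit in their titles, so these were grouped by their description. In all, 0 per-sample columns lacked a sample. Input libraries were not used. RNA-seq totals of 18065062 to 48364919 counts set the precision of gene values, and ChIP-seq and Hi-C depth is unknown here.

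Named domains were the 10 widest in all and in each one-sided class, those without a row in the other genotype (up to 10 by width), and those whose score changed sign in both replicates. Named genes were SETDB1 and called members of the lists with the largest changes, and uncalled members are given for contrast. Members and lists were chosen with earlier results of these data known. RNA-seq libraries with the same number had correlations of 0.21, 0.13 and 0.071 of their deviations, and Hi-C libraries -0.0026, so numbers were not taken as pairs. No libraries agreed within sampling noise, with a smallest chi-square of 1.56 per degree of freedom. Alternatives were other widths, joining and matching rules, bin rules, scalings, filters, a replicate block, DESeq2 1.42.0 and leaving out each replicate.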

Additional observations from a re-analysis of the deposited data

How the results depend on the processing

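Of 1198 values recomputed, 300 were score differences of named domains and 715 fold changes of list genes, and none of these changed direction with a call. The other 183 were numbers, shares and medians without a call of their own, for which a change of direction was not tested. Of these 183, 126 stayed the same and 57 moved. The balance of domains called higher and lower did turn without control Hi-C replicate 2, as given above. Numbers of domains follow from the width asked for. With a minimum of 8 kb there were 1475 domains (median width 11109 bp), 720 broad in both and 437 in knockout only. With 12.5 kb there were 550 (16795 bp), with 264, 121 in control only and 165. With 15 kb there were 348 (20100.5 bp), with 171, 85 and 92. Joining rows within 1000 bp gave 1647 (14565 bp), with 762, 424 and 461. The median share of a one-sided domain acetylated in the other genotype was 77.9% and 77.8% at 8 kb, 87.2% and 84.8% at 12.5 kb, 87.7% and 87.0% at 15 kb, and 65.4% and 67.9% with joined rows (control only, then knockout only). Asking that the other genotype hold at most 50% left 18 and 42 one-sided domains, 70% of them knockout only. Keeping the widest 680 rows of each list (at least 10224 bp in knockout cells), or leaving out chromosomes 2 and 12, moved no class count by over 1.5 times.

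Domains in bins called higher and lower numbered 256 and 301 at 8 kb, 99 and 108 at 12.5 kb, and 64 and 70 at 15 kb, and 96 were higher with scaled columns. Leaving out a Hi-C replicate gave 102 to 183 higher and 108 to 183 lower domains. In the gained domains with little control acetylation, 57.1% to 64.3% were then higher and 0% to 4.76% lower. With a replicate block, 174 domains were higher and 198 lower, and 6060 genes higher and 5595 lower, and the block ended no call of a named domain. Replicate numbers were not taken as pairs.

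If a mark had to cover at least 10% of a domain, H3K4me3 was found in 96.3% of domains in control and 97.1% in knockout cells, H3K9me3 in 29.0% and 1.43%, and CTCF, whose peaks are narrow, in 0% and 0.110%. At 12.5 kb, knockout H3K4me3 was found in 99.3%, control H3K9me3 in 49.8% and CTCF in 16.0% and 32.0%. At 15 kb, H3K4me3 was found in 98.6% and 99.4%, control H3K9me3 in 53.4% and CTCF in 17.0% and 33.6%. Of 300 score differences of named domains recomputed, 22 lost and 2 gained the call. Of 715 fold changes of list genes, 49 lost and 9 gained it, and leaving out a library gave 5343 to 5829 higher and 4831 to 5256 lower genes. Cutoffs of the peak caller, unknown here, limit every width, and the cause of changes with a setting was not tested.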

Other observations

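Some broad domains were neighbours. When domains at most 100 kb apart were joined, 492 of 911 lay in 178 runs of 2 or more, 66 of them of 3 or more, and 419 stood alone. These counts are given without a background from narrower H3K27ac regions, so they do not show whether broad domains cluster more. The run with most domains, chr8:128746132-129125053, held 10, of which 5 were broad in both genotypes, 5 in control only and none in knockout only. Its H3K27ac length was 211.8 kb in control and 200.3 kb in knockout cells, so the 5 narrowed domains took little from the run as a whole. The run at chr7:11658145-11842332, named after its values were seen, held 3 knockout only domains and 1 broad in both. There the acetylated length was 44.9 kb in control and 80.4 kb in knockout cells, and the mean compartment score was -0.098 and 0.61.

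Topologically associating domains (TADs) are stretches of the genome whose parts touch each other more than their surroundings, and their deposited edges lie on a 20 kb grid. Of 911 broad domains, 871 (95.6%, 94.1 to 96.8) lay wholly inside 1 control TAD and 865 inside 1 knockout TAD. A TAD edge fell inside 30 (3.29%, 2.32 to 4.66) and 35 (3.84%). Narrower H3K27ac regions lay wholly inside 1 TAD in 95.6% and 95.4%, so this was not particular to broad domains. They held an edge in 1.65% and 1.70%. Per length, broad domains held 2.02 and 2.28 edges per Mb, against 4.64 and 4.79 in narrower regions. Among 6118 control TADs, 572 (9.35%, 8.65 to 10.1) held a broad domain and 204 held 2 or more. At least 2 control only domains lay in 28 control TADs and at least 2 knockout only domains in 32, while 19 held domains of both one-sided classes. No background is given for these counts either.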
